A study of Mus musculus with 12 samples.

Results

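The 10 genes described here, all of antimicrobial defence, were followed in the mouse urinary bladder around the circadian day: the secreted peptides and proteins Defb1, Reg3g, Slpi, Lcn2, Camp and Ltf, the Toll-like receptors Tlr2, Tlr4 and Tlr5, and the antibody transporter Pigr. The members are all 14 non-control probes that carry these 10 gene names, out of 41174 probes on the array. They were chosen by name, with earlier results of these data known, and no limit on a measured value was set. Counts of members past a threshold therefore do not test the set. 8 of the 10 genes were bright enough to be tested among 18393 named genes. The probes of Camp and Ltf were not, and these genes are described by their signals.

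The bladder is lined by urothelium, which keeps bacteria out by a barrier, by secreted peptides and proteins, and by receptors that sense bacterial products. Toll-like receptors bind lipoproteins, lipopolysaccharide or flagellin and signal through adaptors to NF-kB, which induces cytokines, chemokines and part of the secreted effectors. The polymeric immunoglobulin receptor carries IgA across the epithelium into the lumen.

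The series holds 12 single-colour oligonucleotide arrays of total RNA from whole bladder, 2 at each of 6 circadian times 4 h apart (CT0, CT4, CT8, CT12, CT16 and CT20). All mice were wild-type C57BL/6 females of 10 weeks, held in constant darkness after 2 weeks of acclimation to 12 h of light and 12 h of darkness. CT0 is the start and CT12 the end of the subjective day. The labels do not say how long darkness had lasted or whether each array is a separate mouse, so the p-values measure the spread between these samples, which may be technical.

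Levels are log2 processed signals minus the 75th percentile of the array, so that a level of 0 is the 75th percentile itself. A probe's level is not comparable with that of another probe, and each gene is compared only with itself across times. A probe is called well above background where the scanner software marks its spots so. The 75th percentile lay between 844 and 984 intensity units, 64.2% to 70.2% of spots were well above background, and no spot was saturated. The arrays lay on 3 slides: slide 1 held CT0 and CT4, slide 2 held CT8 and CT12, and slide 3 held CT16 and CT20. A difference between slides therefore cannot be told apart from one between those pairs of times, and only CT4 minus CT0, CT12 minus CT8 and CT20 minus CT16 compare times within a slide. All 17 urothelial markers and all 8 smooth muscle markers on the array were well above background on all 12 arrays. In whole bladder, fewer cells of a type and less RNA per cell cannot be told apart.

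**Figure D1:**
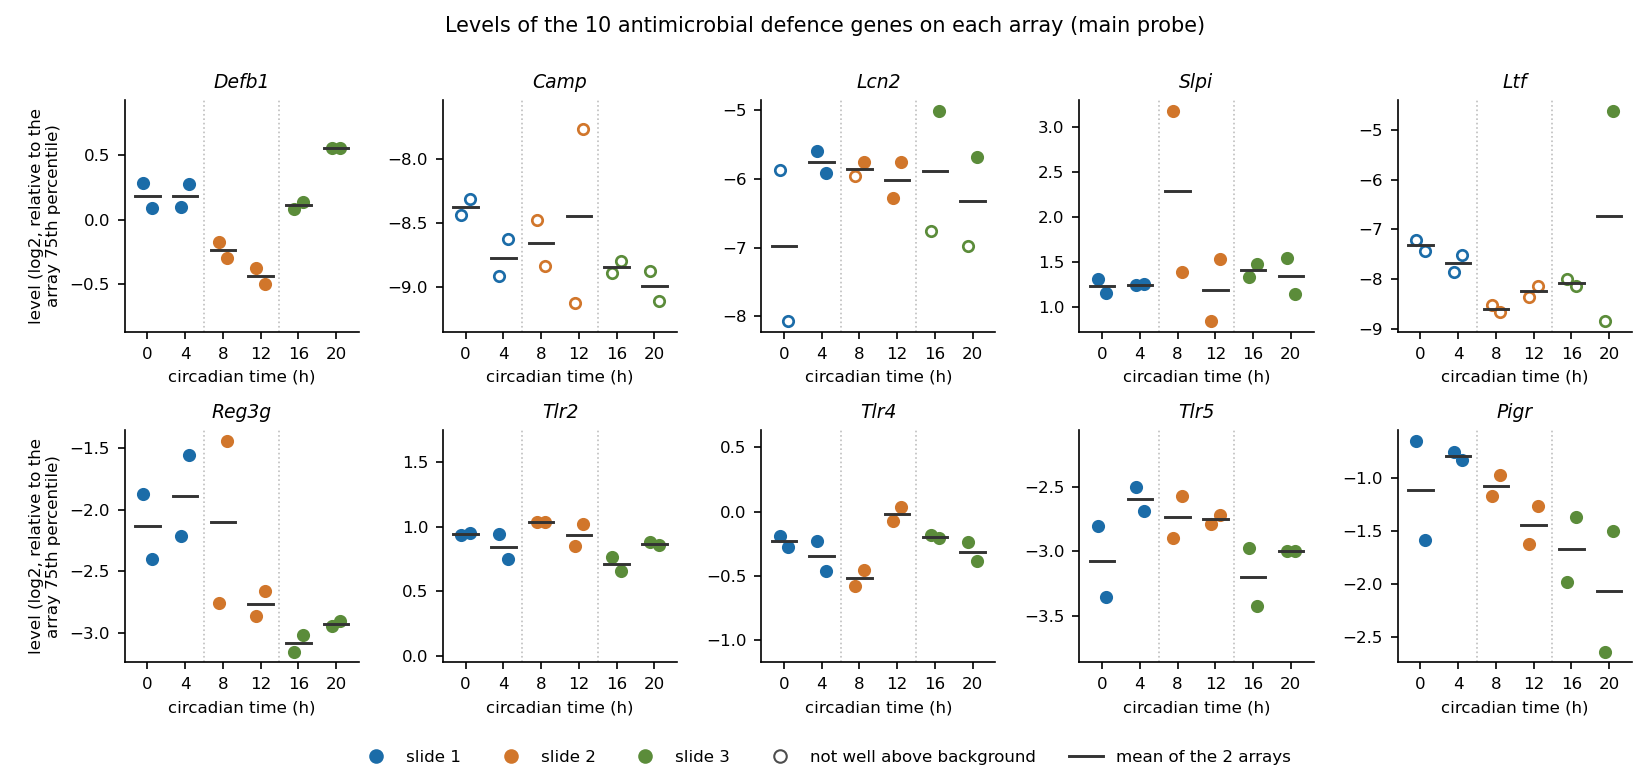
Levels of the 10 genes on each of the 12 arrays (log2, relative to the array's 75th percentile) against circadian time in hours, from the probe used for each gene. Filled points are well above background and open points are not, colours mark the 3 slides, bars are means of the 2 arrays, and the vertical scales differ. The 2 Defb1 arrays at CT20 lie above all others, the 4 Reg3g arrays of slide 3 lie below all others, and Slpi has a single high array at CT8.

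Defb1 had the smallest spread between the 2 arrays of a time among the member effectors tested. It encodes beta-defensin 1, a cationic peptide made constitutively by epithelia of the urinary tract. Its level was 0.28 and 0.09 at CT0, 0.10 and 0.28 at CT4, -0.17 and -0.29 at CT8, -0.37 and -0.50 at CT12, 0.08 and 0.14 at CT16, and 0.56 and 0.56 at CT20. Both CT20 arrays were the highest of the 12 and both CT12 arrays the lowest. Of all genes tested, 3.28% had both CT20 arrays above the 10 others, and 4.62% had both CT12 arrays below the 10 others. The 4 arrays of slide 2 all lay below the 8 arrays of slides 1 and 3, as in 0.767% of genes. The order of the time means was CT20, CT4, CT0, CT16, CT8 and CT12, and CT4, CT0 and CT16 overlapped. The mean was 0.56 ± 0.00 (SD, n = 2) at CT20 and -0.43 ± 0.09 (SD, n = 2) at CT12, a ratio of 1.98.

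A second Defb1 probe gave the same course. The probes lie on chromosome 8 of the mm7 build, plus strand, at chr8:20577478-20577537 and chr8:20577467-20577526, so that their starts are 11 bases apart and they read nearly the same stretch of the mRNA. The second probe's level was 0.15 and -0.11 at CT0, -0.05 and 0.14 at CT4, -0.49 and -0.44 at CT8, -0.47 and -0.64 at CT12, -0.10 and -0.03 at CT16, and 0.40 and 0.40 at CT20. Across the 12 arrays the probes correlated with r = 0.988, and the difference between them had an SD of 0.05. They share each array's RNA and most of their sequence, so this agreement is between spots.

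A 24 h wave was fitted to each gene with limma, as a cosine and a sine term over all 12 arrays, with Benjamini-Hochberg adjustment over the 18393 genes. Defb1 had a fitted peak at CT22.0 ± 0.66 h (SE) and a peak 1.76 times the trough (1.60 to 1.94 at 1 SE either side). Its unadjusted p was 0.000446 and its adjusted p was 0.0559, outside the threshold of 0.05. The limma test for any difference between the 6 times gave Defb1 an adjusted p of 0.0778. The second probe, fitted among every probe with no filter, had a 1.78-fold wave with a peak at CT21.9 and an adjusted p of 0.103, beside 0.104 for the first in that fit.

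Within slide 3, Defb1 was higher at CT20 than at CT16 by 0.44 ± 0.10 (SE) on the log2 scale, with both CT20 arrays above both CT16 arrays, as in 25.4% of genes. The limma contrast had an unadjusted p of 0.00270 and an adjusted p of 0.177. CT12 minus CT8 was -0.20 ± 0.10 (SE, adjusted p = 0.450) and CT4 minus CT0 was 0.00 ± 0.10 (SE, adjusted p = 0.999). With slide as a fixed block the wave kept a ratio of 1.69, its peak moved to CT1.2 ± 0.91 h (SE), and the adjusted p was 0.238.

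**Figure D2:**
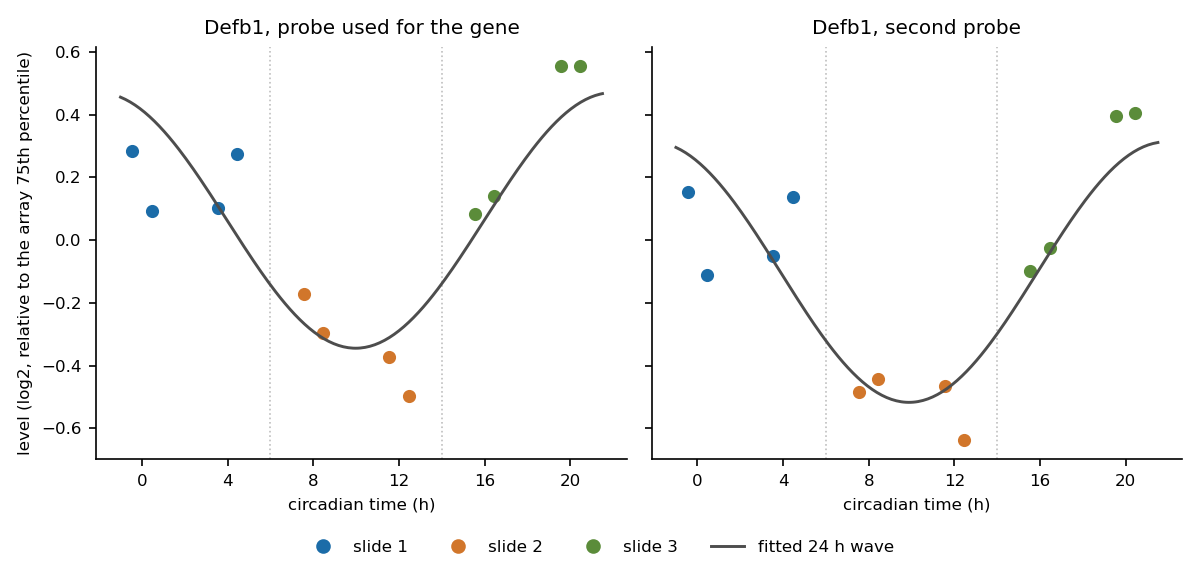
Levels of the 2 Defb1 probes on each array (log2, relative to the array's 75th percentile) against circadian time in hours, coloured by slide, with the fitted 24 h wave as a line. Both probes are highest on the 2 CT20 arrays and lowest on the 4 arrays of slide 2, and the CT20 arrays lie above the fitted line.

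Reg3g encodes a C-type lectin that kills Gram-positive bacteria at mucosal surfaces. Its probe lies at chr6:78484334-78484393 (mm7, minus strand). Its level was -1.87 and -2.40 at CT0, -2.21 and -1.55 at CT4, -2.76 and -1.44 at CT8, -2.86 and -2.66 at CT12, -3.15 and -3.02 at CT16, and -2.94 and -2.91 at CT20. The 4 arrays of slide 3 all lay below the 8 others, as in 0.881% of genes, so slide and time cannot be told apart there. At CT0, CT4 and CT8 the 2 arrays of a time lay farther apart than the means of these 3 times did (-2.13 ± 0.38, -1.88 ± 0.46 and -2.10 ± 0.93, SD, n = 2).

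The fitted Reg3g wave was the largest among the 8 genes, 2.45-fold (2.01 to 2.98 at 1 SE either side) with a peak at CT4.3 ± 0.84 h (SE). In the limma fit its unadjusted p was 0.00304 and its adjusted p 0.118. With slide as a fixed block the ratio was 2.24 and the adjusted p 0.591. None of its 3 steps within a slide reached an unadjusted p of 0.05; the largest, CT12 minus CT8, was -0.66 ± 0.41 (SE), and was -0.00 without the second CT8 array and -1.32 without the first.

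Slpi encodes the secretory leukocyte protease inhibitor, an antimicrobial protein of mucosal secretions that inhibits neutrophil elastase. Its level was 1.32 and 1.16 at CT0, 1.24 and 1.26 at CT4, 3.18 and 1.39 at CT8, 0.84 and 1.53 at CT12, 1.34 and 1.48 at CT16, and 1.55 and 1.15 at CT20. The other 11 arrays lay between 0.84 and 1.55, and the first CT8 array stood apart with a signal of 7066 where the others had 1502 to 2484. The probe has a single spot on each array, and that spot carried no outlier mark. The CT8 mean of 2.28 ± 1.26 (SD, n = 2) therefore rests on 1 array: CT12 minus CT8 was -1.10 ± 0.50 (SE, adjusted p = 0.404) with all arrays and -0.20 without it. The fitted wave was 1.47-fold (adjusted p = 0.723) and 1.08-fold without that array.

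Lcn2 encodes lipocalin 2, which binds bacterial siderophores and so withholds iron. Its probe spans chr2:32392828-32393072 (mm7, minus strand). Its signals were low, 3.1 to 25.2 intensity units, and well above background on 7 of the 12 arrays. Its level was -5.87 and -8.08 at CT0, -5.59 and -5.91 at CT4, -5.96 and -5.75 at CT8, -6.28 and -5.75 at CT12, -6.76 and -5.01 at CT16, and -6.97 and -5.68 at CT20. At CT0, CT16 and CT20 the 2 arrays lay farther apart than any of the time means, while those of CT4, CT8 and CT12 lay close together. Neither CT0 array was well above background. At CT4, where both arrays were, the mean was -5.75. The 2 times overlapped, as the first CT0 array (-5.87) lay above the second CT4 array (-5.91). For each CT0 array the higher of its own signal and the lowest signal marked well above background there was then taken. On these values CT4 was 1.17-fold higher than CT0. This is not a lower bound, because the first CT0 array, itself dim, already lay above that lowest signal. The limma contrast of CT4 against CT0 had an adjusted p of 0.657, and the 1.77-fold wave an adjusted p of 0.691.

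Camp and Ltf encode cathelicidin and lactotransferrin, which neutrophils store in granules and some epithelia secrete. Camp was not well above background on any of the 12 arrays, with signals of 1.5 to 3.9. The 2 Ltf probes gave signals of 1.8 to 5.9 and 1.8 to 5.8, apart from 35.6 on the second CT20 array with the first probe. That spot was the only Ltf measurement well above background, and the second Ltf probe read 5.2 on the same array. The same array had the highest mean level of the 11 hepatocyte markers, 2.79 above their mean over all arrays. On the second CT12 array these markers were 2.39 above that mean, and the first Ltf probe read 3.1, not well above background. The part of these transcripts in the Ltf signal was not tested.

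**Figure D3:**
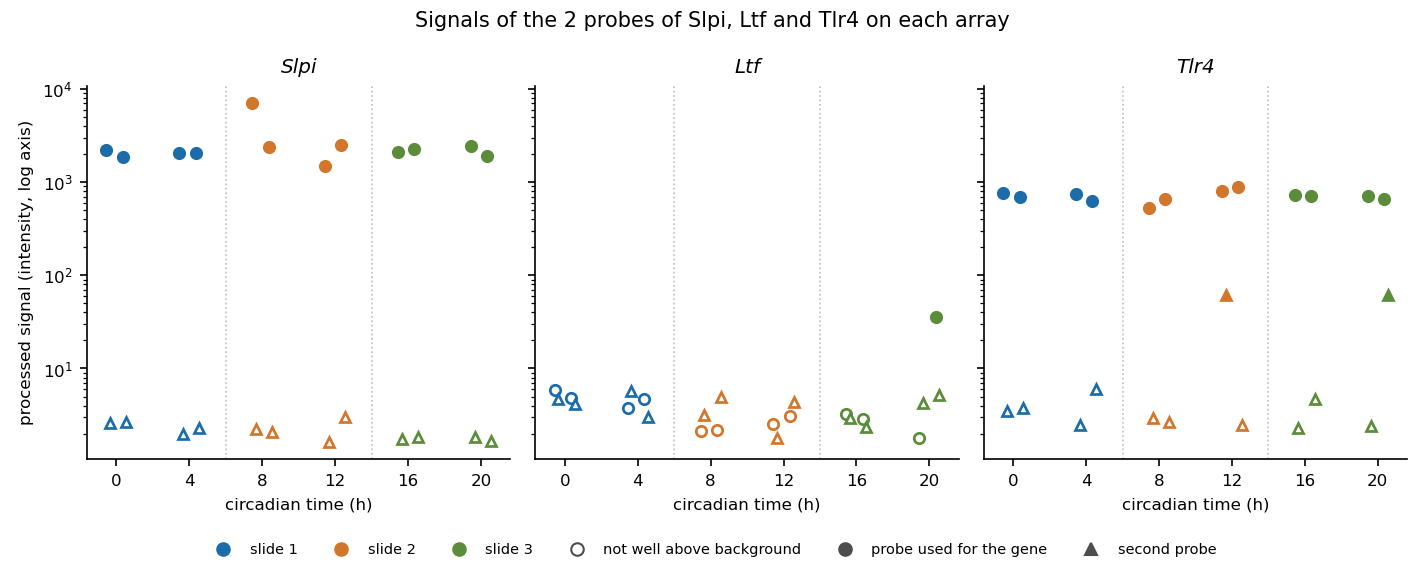
Processed signals (intensity units, log axis) of the 2 probes of Slpi, Ltf and Tlr4 on each array against circadian time in hours; circles are the probe used for the gene, triangles the second probe, open symbols are not well above background. The second probes of Slpi and Ltf stay below 6 on all 12 arrays, and that of Tlr4 does so on 10 of 12.

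The second probes of Slpi and Tlr4 did not follow the first. The Slpi probes lie on the minus strand at chr2:164095003-164095062 and chr2:164100217-164100276 (mm7), 5214 bases apart, and the second was not well above background on any array. The second Tlr4 probe is placed 86832 bases from the first and annotated to a different transcript record, so it may not read the same RNA. It read 62.1 on the first CT12 array and 61.7 on the second CT20 array and 2.3 to 6.0 on the other 10. Its correlation with the first probe over the 12 arrays was r = 0.03. Where in the gene models these probes fall was not analysed here.

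Among the receptors, Tlr2 and Tlr4 were printed 10 times on each array so that the spread between spots of an array is known for them. Tlr2 encodes the receptor for bacterial lipoproteins, and its spots on an array had an SD of 0.02 to 0.05 (log2). The probe lies at chr3:83941473-83941532 (mm7, minus strand). Its level was 0.94 and 0.95 at CT0, 0.94 and 0.75 at CT4, 1.04 and 1.03 at CT8, 0.85 and 1.02 at CT12, 0.77 and 0.66 at CT16, and 0.88 and 0.86 at CT20. Both CT8 arrays were the highest, as in 2.65% of genes, and the CT16 arrays were low, although the first of them overlapped the second CT4 array. The means ran from 0.71 ± 0.08 (SD, n = 2) at CT16 to 1.04 ± 0.01 (SD, n = 2) at CT8, a ratio of 1.25. The fitted wave was 1.13-fold (1.05 to 1.21 at 1 SE either side), with a limma adjusted p of 0.564.

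Tlr4 encodes the receptor for lipopolysaccharide, the main outer membrane component of uropathogenic Escherichia coli. Its first probe lies at chr4:66276388-66276447 (mm7, plus strand). Its spots on an array had an SD of 0.04 to 0.07 (log2). Its level was -0.19 and -0.27 at CT0, -0.23 and -0.46 at CT4, -0.58 and -0.45 at CT8, -0.07 and 0.04 at CT12, -0.18 and -0.21 at CT16, and -0.23 and -0.39 at CT20. The CT12 arrays were the highest 2 of the 12, as in 2.79% of genes, and the CT8 arrays on the same slide were among the lowest 3. CT12 exceeded CT8 by 0.50 ± 0.11 (SE) on the log2 scale, a ratio of 1.41, with both CT12 arrays above both CT8 arrays, as in 19.7% of genes. The limma contrast had an unadjusted p of 0.00164 and an adjusted p of 0.248. The test for any difference between the times gave an adjusted p of 0.216. The wave was 1.18-fold (adjusted p = 0.554) without a slide term and 1.76-fold with slide as a fixed block (peak at CT16.0 ± 0.88 h (SE), unadjusted p = 0.00635, adjusted p = 0.233).

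Tlr5 encodes the receptor for flagellin. Its probe lies at chr1:182962847-182962906 (mm7, plus strand). Its level was -2.80 and -3.35 at CT0, -2.50 and -2.69 at CT4, -2.89 and -2.57 at CT8, -2.79 and -2.72 at CT12, -2.98 and -3.42 at CT16, and -3.00 and -3.00 at CT20. The arrays of CT4, CT8 and CT12 lay above those of CT16 and CT20, and the CT0 arrays fell on either side. The fitted wave was 1.43-fold (1.26 to 1.61 at 1 SE either side) with a peak at CT6.8 ± 1.3 h (SE), and in limma its unadjusted p was 0.0462 and its adjusted p 0.316. CT4 minus CT0 was 0.48 ± 0.21 (SE, adjusted p = 0.557).

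Pigr encodes the polymeric immunoglobulin receptor. Its probe lies at chr1:130755546-130755605 (mm7, plus strand). Its level was -0.65 and -1.58 at CT0, -0.75 and -0.83 at CT4, -1.17 and -0.97 at CT8, -1.62 and -1.26 at CT12, -1.98 and -1.37 at CT16, and -2.64 and -1.50 at CT20. The CT4 arrays agreed closely and were high, the CT20 arrays were far apart, and the ranges of CT12, CT16 and CT20 overlapped. The means fell from -0.79 ± 0.05 (SD, n = 2) at CT4 to -2.07 ± 0.81 (SD, n = 2) at CT20, a ratio of 2.43. The fitted wave was 2.15-fold (1.71 to 2.69 at 1 SE either side) with a peak at CT5.4 ± 1.1 h (SE), an unadjusted limma p of 0.0199 and an adjusted p of 0.234. With slide as a fixed block it was 1.93-fold with an adjusted p of 0.713. CT20 minus CT16 was -0.40 ± 0.42 (SE) with all arrays and 0.18 without the first CT20 array.

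**Figure D4:**
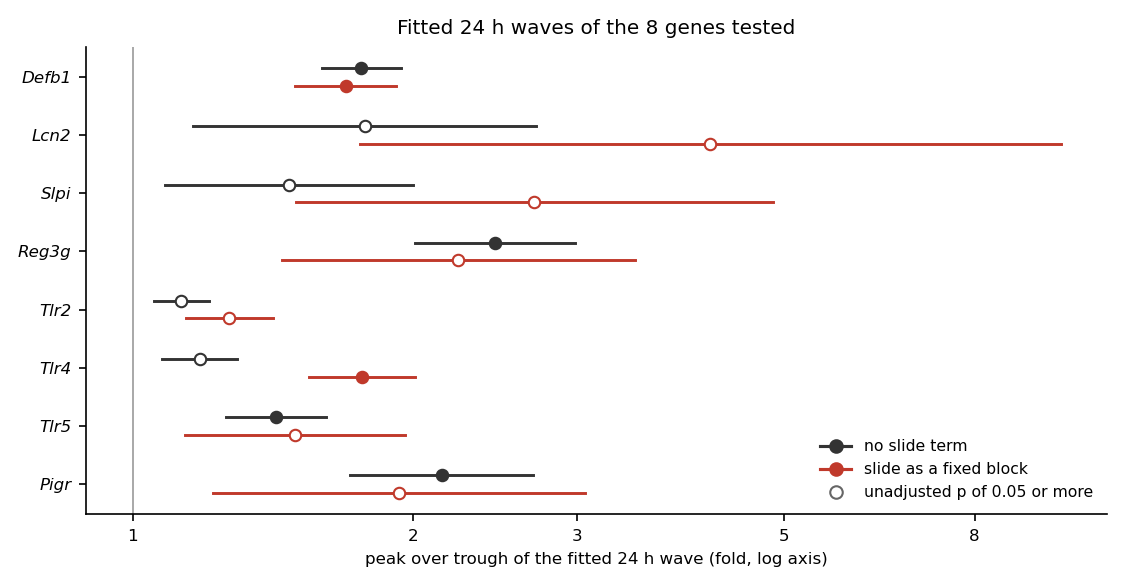
Peak over trough of the fitted 24 h wave (fold, log axis) for the 8 genes tested, without a slide term in black and with slide as a fixed block in red; bars reach 1 SE of the amplitude either side, and open points have an unadjusted p of 0.05 or more. Defb1 is the single gene filled in both fits, at 1.76 and 1.69.

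Of the 8 genes tested, 0 had a 24 h wave at a limma adjusted p under 0.05, beside 0.636% of all genes. At an unadjusted p under 0.05 the wave held for 4 of 8 (Defb1, Reg3g, Tlr5 and Pigr), beside 15.6% of all genes; limma was the only tool run. With slide as a fixed block these were 2 of 8, Defb1 and Tlr4, beside 2555 of all 18393 genes in that fit. The median ratio of peak to trough was 1.62 over the 8 genes and 1.18 over all genes tested. A fitted ratio cannot fall below 1 and rises with the spread between arrays. The SDs within a time of Pigr, Reg3g, Slpi and Lcn2 lay above 88.9% to 97.5% of genes. These medians, and those of the lists below, therefore do not compare the strength of rhythms. The 4 genes with an unadjusted p under 0.05 had fitted peaks at CT22.0 (Defb1), CT4.3 (Reg3g), CT5.4 (Pigr) and CT6.8 (Tlr5). With slide as a fixed block these lay at CT1.2, CT4.3, CT8.1 and CT6.3.

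The test for any difference between the times called 0 of 8 genes after adjustment, beside 0.0979% of all genes, and 2 of 8 unadjusted (Defb1 and Tlr4), beside 19.1%. CT4 minus CT0 called 0 of 8 after adjustment (0.00544% of all genes) and 0 of 8 unadjusted (9.18%). CT12 minus CT8 called 0 of 8 after adjustment (0% of all genes) and 1 of 8 unadjusted, Tlr4 (13%). CT20 minus CT16 called 0 of 8 after adjustment (0.00544% of all genes) and 1 of 8 unadjusted, Defb1 (14.3%). In these tests the members' shares lay near those of all genes.

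The genes differed in the spread between the 2 arrays of a time. The pooled SD within a time was 0.09 (log2) for Defb1, 0.08 for Tlr2 and 0.10 for Tlr4, and 22.6%, 17.3% and 25.1% of genes had a smaller one. That of Tlr5 was 0.23, and the SDs of Pigr, Reg3g, Slpi and Lcn2 lay above 88.9% to 97.5% of genes. The median over all genes tested was 0.16.

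Upstream sequences are shown for Reg3g and Pigr, the members with the largest fitted waves among those well above background on all arrays, and for Slpi, which shares a motif with Pigr. They are the 250 bases before the annotated start, from RefSeq on GRCm38.p6, written 5' to 3' on the strand of the gene; capitals mark matches to an E-box (CACGTG) or a kB site (GGG, 5 bases of any kind, then CC).
Reg3g: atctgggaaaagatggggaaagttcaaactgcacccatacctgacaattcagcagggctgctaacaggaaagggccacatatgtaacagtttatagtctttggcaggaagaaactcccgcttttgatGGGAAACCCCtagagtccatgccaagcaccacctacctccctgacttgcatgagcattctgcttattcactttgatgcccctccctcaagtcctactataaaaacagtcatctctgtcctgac
Pigr: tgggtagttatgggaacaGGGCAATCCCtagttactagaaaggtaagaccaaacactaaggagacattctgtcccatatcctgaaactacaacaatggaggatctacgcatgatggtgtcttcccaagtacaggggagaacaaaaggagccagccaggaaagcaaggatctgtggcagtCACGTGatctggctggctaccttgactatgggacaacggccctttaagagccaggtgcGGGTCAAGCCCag
Slpi: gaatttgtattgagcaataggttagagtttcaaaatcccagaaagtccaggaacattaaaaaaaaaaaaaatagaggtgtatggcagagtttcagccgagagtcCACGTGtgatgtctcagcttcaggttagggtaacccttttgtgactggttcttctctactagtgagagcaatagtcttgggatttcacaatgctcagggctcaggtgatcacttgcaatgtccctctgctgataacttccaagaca
They lie at chr6:78468875-78469124 on the minus strand, chr1:130826434-130826683 on the plus strand and chr2:164356508-164356757 on the minus strand. The match in Reg3g is the kB site GGGAAACCCC at -123 to -114 from the start. Pigr holds an E-box at -71 to -66 and 3 kB matches, 2 of which overlap. Slpi holds an E-box at -146 to -141.

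Both strands were searched for these motifs and for a D-box (TTANGTAA) and a RORE (TAGGTCA), the elements read by the circadian PAR bZIP factors and by the ROR and REV-ERB receptors; CLOCK and BMAL1 bind E-boxes. Of 8 members with a RefSeq upstream entry, 2 held the E-box, beside 6.02% of all 32851 upstream sequences of the same length. The kB pattern was found in 6 of 8 (Lcn2, Ltf, Reg3g, Tlr2, Tlr5 and Pigr), beside 45.8%. The D-box and the RORE were found in 0 of 8, beside 2.06% and 2.23%. Defb1 and Tlr4 had no entry. A match is a description of these letters only.

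Other genes of the same pathways were taken from 4 lists, to be read beside the 15.6% of all genes with an unadjusted wave p under 0.05 in limma. Of the 18 other secreted effectors tested, 0 had a wave after adjustment and 2 did unadjusted, with a median ratio of 1.22 beside 1.18 over all genes: Wfdc2, a protease inhibitor like Slpi (1.20-fold, peak at CT19.0, adjusted p = 0.179), and Ang, a ribonuclease (1.27-fold, CT18.2, adjusted p = 0.316). Of 31 genes of this list on the array, 11 were never well above background, among them Defb2, Reg3a, Reg3b and Umod. Those 11 also include the enzyme gene Nos2 and the cytokine gene Il17c.

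Of the 33 genes tested among the other Toll-like receptors, their adaptors and the NF-kB proteins, 0 had a wave after adjustment and 7 did unadjusted. The median ratio was 1.16. Of these 7, 3 had a peak before CT12 and 4 after, beside 1426 and 1444 among all genes. Nfkbie, an inhibitor of NF-kB, had a 1.50-fold wave with a peak at CT1.7 (adjusted p = 0.0822). Rela, an NF-kB subunit, had a 1.22-fold wave with a peak at CT5.3 (adjusted p = 0.149). The summed level of the list ranged from 6.25 to 6.44 over all arrays.

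Of 12 NF-kB-induced cytokines and chemokines tested, 0 passed after adjustment and 2 did unadjusted, with a median ratio of 1.80. Ccl7 and Ccl2, which attract monocytes, had waves of 2.76-fold with a peak at CT5.5 (adjusted p = 0.0985) and 2.24-fold with a peak at CT3.8 (adjusted p = 0.244). Of 8 genes of IgA production and transport tested, 0 passed after adjustment and 2 did unadjusted, with a median ratio of 1.36. These were Prdm1, a plasma cell transcription factor (1.77-fold, CT19.0, adjusted p = 0.225), and Fcamr, an Fc receptor for IgA and IgM (1.28-fold, CT22.3, adjusted p = 0.317). Over the 4 lists, 13 of 71 genes (18.3%) had an unadjusted p under 0.05 for the wave, beside 15.6% of all genes.

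**Figure D5:**
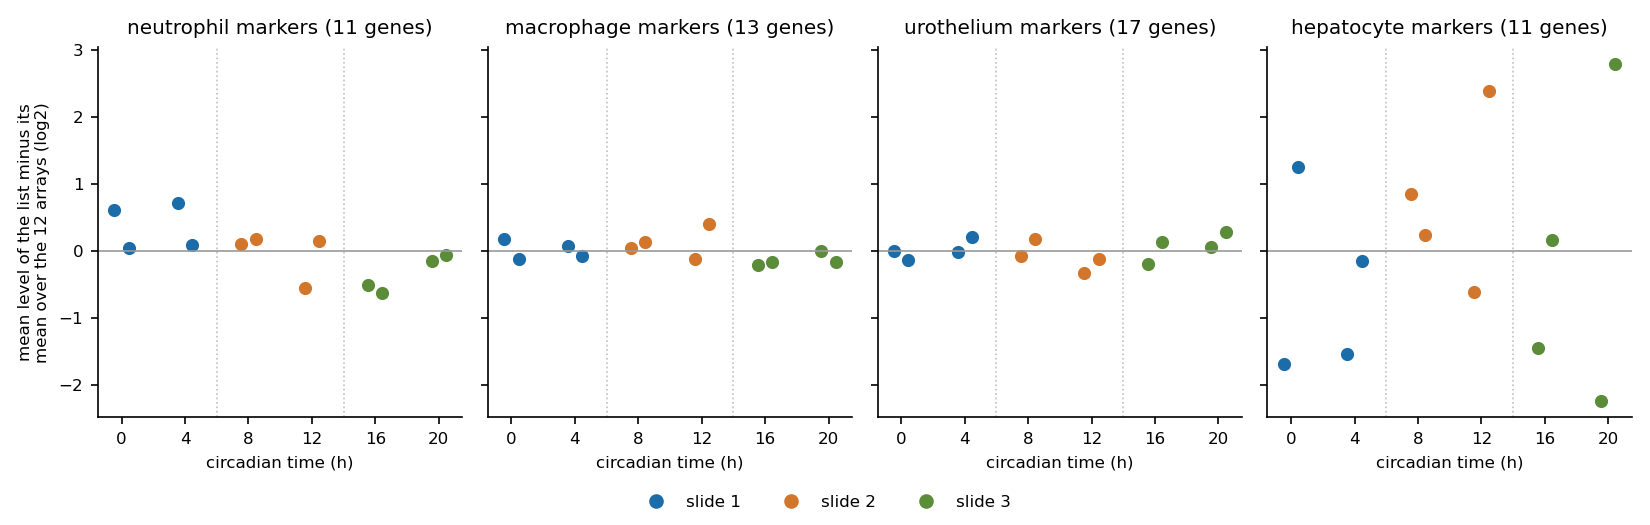
Mean level of 4 marker lists on each array minus the list's mean over the 12 arrays (log2) against circadian time in hours, coloured by slide. The neutrophil list is lowest on the 2 CT16 arrays and 1 CT12 array, and the hepatocyte list spans from -2.23 to 2.79 between the 2 CT20 arrays.

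Leukocyte markers were measured on the same arrays. Of 22 neutrophil markers, 19 were on the array and 11 were tested; Elane, Mmp8, Ngp, Prtn3 and Stfa2 were never well above background. The summed neutrophil level was 0.11 to 0.63 at CT0, 0.21 to 0.69 at CT4, 0.28 to 0.38 at CT8, 0.02 to 0.48 at CT12, -0.44 to -0.25 at CT16 and -0.08 to 0.04 at CT20. By this sum both CT16 arrays were below the other 10, and CT16 is where Reg3g and Tlr5 had their lowest means. Bright genes add most to the sum, and the brightest of the list were Mmp9 and Ltb4r1 (mean levels -1.62 and -1.71). By the mean of the markers, each weighted equally, a CT12 array (-0.55 from the list's mean) lay between the CT16 arrays (-0.50 and -0.63). The part of neutrophils in those results was not tested. 0 of the 11 had a wave after adjustment in limma and 3 did unadjusted, beside 15.6% of all genes.

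All 13 macrophage markers on the array were well above background on all arrays. Their summed level was 6.95 to 7.31 at CT0, 6.89 to 7.10 at CT4, 7.08 to 7.10 at CT8, 6.99 to 7.41 at CT12, 6.80 to 6.83 at CT16 and 6.78 to 7.03 at CT20. Bright genes add most to this sum, above all Lyz2 (mean level 6.39). Its lowest value was on the second CT20 array, below both CT16 arrays. Tlr2 had its lowest mean at CT16 and a level of 0.86 on that CT20 array. Weighted equally, the markers were lowest on the CT16 arrays (-0.20 and -0.16 from the list's mean) and the second CT20 array (-0.16). Cd163, a scavenger receptor of resident macrophages, had the only wave in the marker lists past the threshold (2.03-fold, peak at CT10.5, adjusted p = 0.0425). The summed urothelial level was 10.17 to 10.28 at CT0, 10.28 to 10.36 at CT4, 10.30 to 10.35 at CT8, 9.91 to 10.19 at CT12, 10.21 to 10.42 at CT16 and 10.44 to 10.49 at CT20. By this sum, to which bright genes add most, both CT20 arrays were the highest and a CT12 array the lowest, the times at which Defb1 was highest and lowest. By the mean of the markers the first CT20 array (0.06 from the list's mean) lay below the second arrays of CT4 (0.21), CT8 (0.18) and CT16 (0.13). The part of these cells in the Defb1 and Tlr2 results was not tested.

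The hepatocyte list, genes made in the liver, differed widely between arrays of the same time. Its 3 highest arrays were the second ones of CT20, CT12 and CT0, at 2.79, 2.39 and 1.26 above the list's mean. Without these 3 arrays, which leaves 1 array at CT0, CT12 and CT20, the Defb1 wave was 1.78-fold, that of Reg3g 2.53-fold and that of Pigr 2.34-fold. With all arrays these were 1.76-fold, 2.45-fold and 2.15-fold. None passed the threshold there (limma adjusted p = 0.0559, 0.118 and 0.234).

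The genes most like each member over the 12 arrays are given as a description; the points share arrays, slides and times. Defb1 was most like Psmd2 (r = 0.937) and Lin37 (r = 0.927), both with smaller waves of 1.12-fold and 1.14-fold. Tlr2 was most like Pf4 (r = 0.950) and Cd68 (r = 0.927), the latter on the macrophage list. Tlr5 was most like Mmp9 (r = 0.931), on the neutrophil list, and Enpp3 (r = 0.905).

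Reg3g was most like Avpi1 (r = 0.919) and Ngfr (r = 0.910), and Pigr was most like Vat1l (r = 0.917) and Zfp185 (r = 0.911). Tlr4 was most like Olfr485 (r = 0.925) and Cers2 (r = 0.904). Slpi was most like Hsd17b10 (r = 0.927) and Fh1 (r = 0.920). Among the members themselves the highest correlation was between Reg3g and Pigr (r = 0.708), and Defb1 correlated below 0 with each of the other 6 genes well above background on all arrays (r = -0.44 to -0.09).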

How the data were processed

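Per the file headers, the deposited intensity values are processed signals of a 1-colour Agilent mouse array, background-subtracted by Feature Extraction and placed on mm7. Per the labels, total RNA came from whole bladder. The authors' deposited value table holds log2 values (column medians 8.70 to 8.72), whose normalization is not given in the sources used here; the submitters' processing notes name R 2.8.1.

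Outlier spots were dropped, spots of a probe averaged on the log2 scale, and the array's 75th percentile subtracted. Names came from RefSeq tables (22951 probes by accession, 6659 by symbol, 3109 by synonym) and from the files for 8455. The probe with the highest mean stood for each name, and a name was tested if the scanner software marked that probe as well above background on 4 or more of the 12 arrays. Waves, differences between times and steps within slides were fitted with limma 3.58.1 (R 4.3.3). Benjamini-Hochberg adjustment was over 18393 genes, with a threshold of 0.05. The fits were also run on simulated arrays with known waves or a known change at CT20. These had independent noise and no slide differences, so they do not test how slides affect the results. Scaling, background correction, filter, probe choice, slide, replicate number, variance prior and each array were varied. The genes named from lists are those with the smallest wave p or the highest level, and likeness is the Pearson correlation over the 12 arrays. The members and lists were chosen with earlier results of these data known. All arrays were scanned on 1 day. The number of arrays limits the precision.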

Additional observations from a re-analysis of the deposited data

How the results depend on the processing

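The Defb1 wave kept its ratio (1.67 to 1.92) over 25 alternatives, and its limma adjusted p ran from 0.0240 to 0.238. It passed 0.05 in 5 of them: normexp (0.0472), the authors' deposited table (0.0484), genes well above background on all 12 arrays (0.0405), an intensity trend (0.0345), and without the second CT0 array (0.0240). The any-difference test of Defb1 passed in 4 of 25 (normexp 0.0320, 0.0355 with the deposited values, intensity trend 0.0342, without the first CT0 array 0.0490), and ran up to 0.307. No other member passed in any alternative run. The Lcn2 wave ran from 1.05-fold (normexp) to 4.16-fold (slide as a fixed block), and that of Slpi from 1.08-fold (without the first CT8 array) to 2.70-fold (slide as a fixed block). The cause of these changes was not tested.

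Counts over all genes moved more, and in both directions. The wave count rose from 117 to 162 with normexp, 172 with the deposited values and 174 with the trend. With genes above background on all arrays it was also 174. The 117 waves became 62 with median scaling, 50 with no filter, 235 with every probe tested, 7 with slide fixed, 33 with slide random, 18 without the 3 arrays highest in hepatocyte transcripts, and 42 (without the second CT12 array) to 119 on leaving out 1 array. The 18 genes differing between times became 52 with normexp, 47 with the deposited values, 33 with genes above background on all arrays, 2 with slide fixed, 7 with slide random, 48 with the trend, 0 without the 3 arrays (2426 unadjusted in limma), and 7 (without the second CT12 or the second CT20 array) to 120 (without the first CT0 array) on leaving out 1. For CT4 minus CT0 (1 gene), quantile scaling gave 0, normexp 2, the deposited values 3, no filter 6, every probe 0, the trend 2, without the 3 arrays 0, and leaving out 1 array 0 to 246, the last without the first CT0 array. For CT12 minus CT8 (0 genes, 2396 unadjusted), no filter gave 2 and leaving out 1 array 0 to 4 (without the first CT8 array). For CT20 minus CT16 (1 gene), median scaling, no filter, every probe and leaving out the 3 arrays each gave 0, and leaving out 1 array 0 to 5 (without the first CT16 array). With slide fixed, the test for any difference between times covers only the 3 steps within slides. Where 1 array of a time is left, it is assumed to vary like the others. Leaving out the 3 arrays, and every probe with no filter, were chosen after seeing the data.

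Replicate numbers are shared between times, but deviations of same-numbered arrays correlated at -0.20 to 0.44 (median 0.17, 15 pairs of times), so the numbers were not taken as pairs. With a replicate block 99 genes had a wave, 24 differed between times, and 0, 0 and 0 passed for CT4 minus CT0, CT12 minus CT8 and CT20 minus CT16; the adjusted p of the Defb1 wave was 0.0712. The 2 arrays per time and 3 slides limit all of these values.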
